A study of Homo sapiens with 8 samples.

Results

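The 39 genes described here encode molecular chaperones, their helpers and the sensors that regulate them, and they were taken by symbol from a gene count table of 8 RNA sequencing libraries. They were 39 of the 23354 genes in the table and all 39 were among the 15564 genes tested. By compartment, 15 belonged to the cytosol and nucleus (14 chaperones and co-chaperones and the transcription factor HSF1), 3 to mitochondria and 21 to the endoplasmic reticulum (ER), including its sensors and its degradation machinery. The rule applied no threshold to measured values.

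The cells were mesenchymal stromal cells that had been made from the established human embryonic stem cell line H9, so all 8 libraries share 1 genetic background. The study compared cells that were not frozen with cells frozen in dimethyl sulfoxide (DMSO), the conventional cryoprotectant, or in experimental multicomponent osmolyte solutions, labelled SMC, SGC and SGI with no key to the letters. Of the 3 fresh libraries, 1 was taken at 0 h, 1 after an hour's hold with DMSO (1 h) and 1 after an equal hold in medium. The 2 DMSO-frozen libraries came from cells held for 0 h and 1 h, and the 3 osmolyte-frozen ones from cells held for 2 h in SMC, 1 h in SGC and 1 h in SGI. Osmolyte solutions were cooled at 3 °C/min and DMSO at 1 °C/min, so solution and cooling rate cannot be told apart, and no library held unfrozen cells in an osmolyte solution. Each condition had 1 library, so unlike conditions served as the replicates of each group, and nothing says that the libraries came from separate cultures. The p-values therefore measure only the spread between these libraries, which mixes differences between conditions with spread that may be technical.

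Cells answer misfolded protein with separate programmes in each compartment. In the cytosol, HSF1 binds heat shock elements, arrays of GAA blocks in alternating orientation, and raises the genes for HSP70, HSP90, HSP40 and small heat shock proteins. In the ER, the sensors ATF6, IRE1 (encoded by ERN1) and PERK raise folding enzymes, chaperones and the machinery of ER-associated degradation (ERAD), in part through ER stress elements that ATF6 and XBP1 recognise. Mesenchymal stromal cells secrete large amounts of collagen and other matrix proteins, whose folding depends on ER chaperones.

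Promoter sequences are shown for members of each response that the results turn on. HSF1 and the ER stress factors are known to read elements of these kinds, but the stretches were chosen by their letters, not by known binding. The sequences come from RefSeq (GRCh38.p14), which matched 36 of the 39 members through 49 promoters, with HSF1, CRYAB and PDIA3 unmatched. In the 250 bases before the annotated start, both strands were searched for the 3-unit heat shock element GAANNTTCNNGAA, the 2-unit form GAANNTTC contained in it, the ER stress element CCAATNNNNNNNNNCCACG and its second form ATTGGNCCACG. Only exact matches were counted, so a gene without a match may hold elements that depart from these letters. The 3-unit heat shock element was found in 0.441% of 35116 promoters, or 0.557% of 27305 genes. It was found in 4 members, HSPA8, HSP90AA1, HSP90AB1 and HSPD1. Its 2-unit form was found in 5.78% of promoters (7.05% of genes) and in 11 members, those 4 and HSPA1A, HSPA1B, DNAJA1, DNAJB1, HSPB1, HSPB8 and CANX. The stretches below are printed 5′ to 3′ on the gene's strand without bases annotated as untranslated region, with heat shock elements in capitals: HSPA8 at chr11:123062353-123062386 (minus strand), HSP90AB1 at chr6:44247693-44247865 (plus strand) and HSPB1 at chr7:76302423-76302543 (plus strand).
HSPA8: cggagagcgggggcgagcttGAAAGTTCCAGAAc
HSP90AB1: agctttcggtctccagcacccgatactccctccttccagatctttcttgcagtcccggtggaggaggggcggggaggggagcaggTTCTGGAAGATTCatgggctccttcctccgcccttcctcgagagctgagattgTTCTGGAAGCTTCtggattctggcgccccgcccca
HSPB1: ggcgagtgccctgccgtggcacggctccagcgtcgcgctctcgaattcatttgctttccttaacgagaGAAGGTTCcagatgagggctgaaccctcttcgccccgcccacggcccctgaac

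HSPA8 and HSP90AB1 carried 3-unit elements in these stretches and HSPB1 a 2-unit one. HSPA8 had a further 3-unit match, TTCTGGAAGGTTC, 55 to 43 bases before its start, HSP90AA1 had TTCCGGAAGGTTC 88 to 76 bases before its start, and HSPD1 had 2 overlapping ones, TTCTGGAAAGTTC and GAAAGTTCTGGAA. HSPA1A and HSPA1B both held the 2-unit GAATATTC, 106 to 99 and 105 to 98 bases before their starts.

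The ER stress element was found in 0.0740% of promoters (0.0916% of genes) and in 7 members, HSPA5, HSP90B1, CRELD2, CALR, CANX, PDIA6 and XBP1. Its second form was found in 0.0513% of promoters (0.0659% of genes) and in 3 members, HERPUD1, HYOU1 and SDF2L1. Shown with these elements in capitals are HSPA5, which passed in no comparison, at chr9:125241344-125241593 (minus strand), PDIA6, which was lower in osmolyte-frozen cells, at chr2:10812845-10813035 (minus strand), and HERPUD1, which was higher, at chr16:56931892-56932047 (plus strand).
HSPA5: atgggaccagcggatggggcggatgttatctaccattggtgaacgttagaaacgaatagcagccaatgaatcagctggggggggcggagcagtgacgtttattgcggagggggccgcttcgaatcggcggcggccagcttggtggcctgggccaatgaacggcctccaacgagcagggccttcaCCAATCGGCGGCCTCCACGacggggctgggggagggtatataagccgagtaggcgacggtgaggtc
PDIA6: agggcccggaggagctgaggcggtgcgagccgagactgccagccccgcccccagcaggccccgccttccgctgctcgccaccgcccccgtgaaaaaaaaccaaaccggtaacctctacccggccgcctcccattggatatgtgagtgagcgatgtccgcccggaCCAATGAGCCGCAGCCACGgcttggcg
HERPUD1: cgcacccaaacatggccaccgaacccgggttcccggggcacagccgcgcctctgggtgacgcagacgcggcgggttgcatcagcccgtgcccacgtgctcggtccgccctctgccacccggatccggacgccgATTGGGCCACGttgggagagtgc

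Members that carried an element did not share 1 direction across the elements. All 4 with the 3-unit heat shock element were lower in osmolyte-frozen cells than in DMSO-frozen and than in fresh cells by edgeR at an adjusted p of 0.05, where 16.5% and 21% of all genes were lower and 13.6% and 19.1% higher. Of the 11 with the 2-unit form, those 4 included, 1 was higher and 6 lower than in DMSO-frozen cells, and 2 were higher and 5 lower than in fresh cells. Of the 7 with the first ER stress element, 2 were lower than in DMSO-frozen and 3 lower than in fresh cells, with none higher. Of the 3 with the second form, HERPUD1 was higher in both comparisons and HYOU1 and SDF2L1 did not pass. By their listed positions HSPD1 and HSPE1 overlap (hg19 chromosome 2, 198351308 to 198364998 and 198364721 to 198368187). HSPE1 passed in no comparison, and which of these genes the HSPD1 matches serve was not tested. A match is a description of letters and was not measured as a binding site.

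Sequencing depth was similar in all libraries, with total counts of 41198716 to 51166666. The smallest member counts were 212 for CRYAB, 280 for ERN1 and 288 for HSPA1A, while HSP90B1 reached 83240. Levels are CPM, counts scaled to one common library size after adjustment by the trimmed mean of M-values. In what follows, 3 values for fresh cells are in the order 0 h, 1 h DMSO and 1 h medium, 2 for DMSO-frozen cells in the order 0 h and 1 h, and 3 for osmolyte-frozen cells in the order SMC, SGC and SGI. Among marker genes, VIM measured 2122 to 2854 CPM, all 9 stromal markers were detected, the 6 blood cell markers summed to 1.70 to 2.54 CPM and HLA-DRA was at 0 in every library. The 5 epithelial markers summed to 1219 to 1551 CPM, nearly all of it from the keratins KRT8 and KRT18, while EPCAM was at 0.805 to 2.19 CPM and CDH1 at 0.179 to 1.13 CPM. The 5 endothelial markers summed to 35.7 to 54.3 CPM, most of it from TEK, with PECAM1 at 1.17 to 1.99 CPM. Since these are bulk RNA libraries, fewer cells of a kind and less RNA per cell cannot be told apart.

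The plot of all members by library shows how small the differences were. CRYAB had the widest span, 2.34-fold between its highest and lowest library, and BAG3, a co-chaperone of HSP70, and P4HB, an ER disulfide isomerase, the narrowest at 1.14-fold each.

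**Figure D1:**
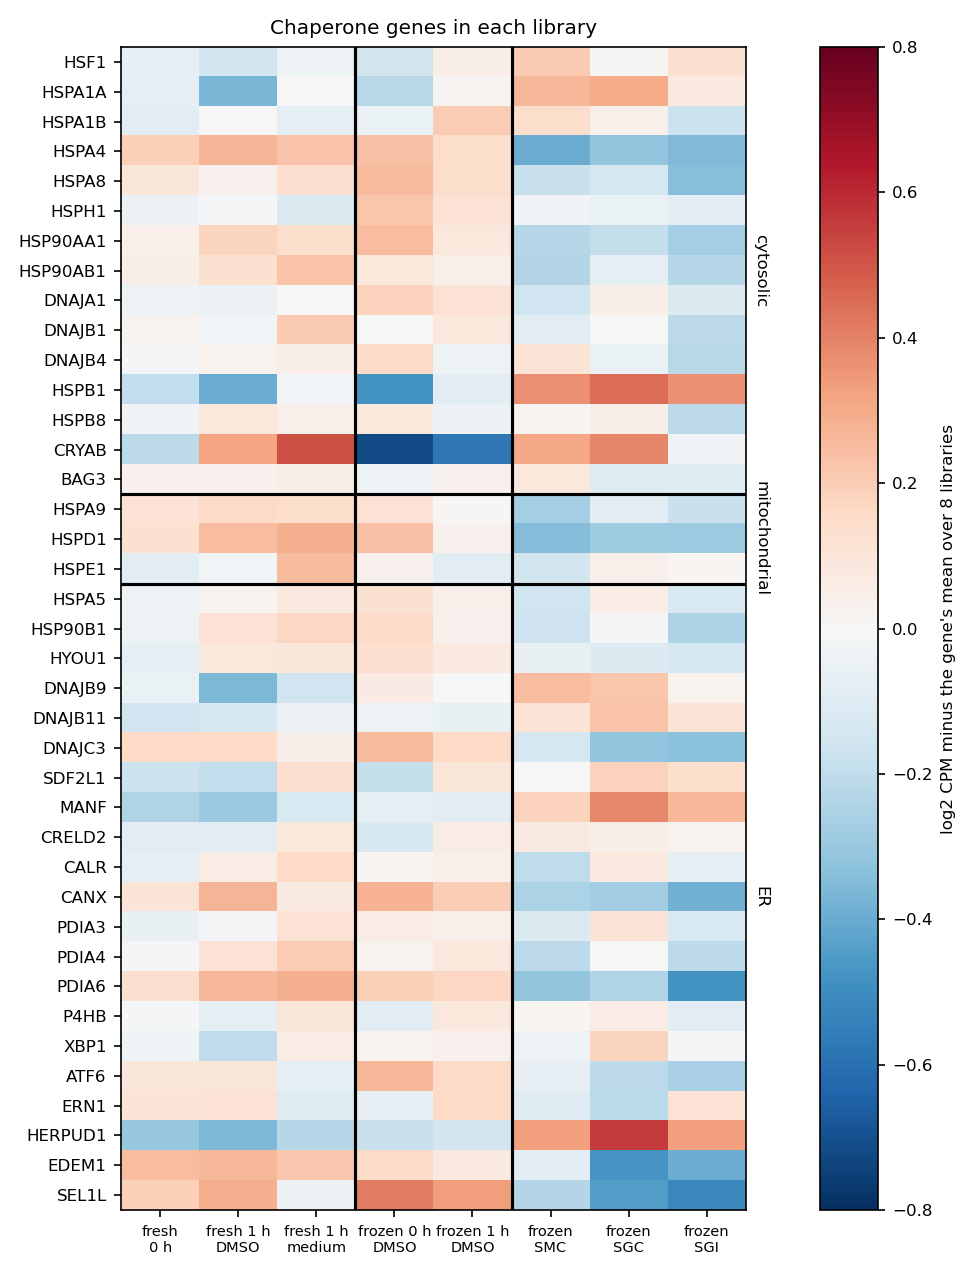
Level of each of the 39 genes (rows) in each of the 8 libraries (columns), as log2 CPM minus the gene's mean over the 8 libraries. Horizontal lines part cytosolic, mitochondrial and ER genes and vertical lines part fresh, DMSO-frozen and osmolyte-frozen libraries. HSPB1, MANF and HERPUD1 are red in the 3 osmolyte-frozen libraries, while HSPA4, HSPD1, CANX, PDIA6 and SEL1L are blue there.

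Levels per length, as the deposited RPKM (reads scaled to the gene's listed length and to sequencing depth), ranked the ER chaperones and the constitutive cytosolic ones first. Mean RPKM over the 8 libraries was 544 for CALR, a calcium-binding lectin chaperone, 372 for HSPA8, the constitutive cytosolic HSP70, 365 for HSP90B1, the ER HSP90, 313 for P4HB and 185 for HSPA5, the ER HSP70 also called BiP. The heat-inducible HSP70 genes were near the foot of this order, with HSPA1B at 4.69 and HSPA1A at 2.38 RPKM, above only ERN1 at 1.26. On this scale neighbours overlapped: HSPA8 ranged from 290 to 459 and HSP90B1 from 305 to 422 RPKM. HSPA1A and HSPA1B are near-identical copies, and HSPA8, HSP90AA1, HSP90AB1, HSPD1 and HSPE1 have processed pseudogenes elsewhere in the genome. How reads that match several places were counted is not given in the sources used here. If such reads were left out, the values and ranks of these genes may be too low.

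Setting osmolyte-frozen against DMSO-frozen cells asks how frozen cells differ with the solution they were frozen in. In osmolyte-frozen cells the small heat shock proteins HSPB1 and CRYAB and the ER stress genes MANF and HERPUD1 were higher, by 1.29-fold to 1.84-fold. Most abundant cytosolic and mitochondrial chaperones and several ER folding and degradation genes were lower, by 1.17-fold for DNAJA1 and HSPH1 to 1.70-fold for SEL1L. By edgeR at an adjusted p of 0.05 over all genes tested, 4 of the 39 members were higher and 14 lower, against 13.6% of genes higher and 16.5% lower (30.1% either way). The members' median log2 fold change was -0.11, beside 0.04 over all genes tested. Libraries of the 2 groups did not overlap for 6 members on the higher and 17 on the lower side, beside 29.1% and 27.7% of all genes. On data simulated for this comparison over 15392 genes, the test found 48 of 100 genes changed by 1.4-fold and 100 of 100 changed by 2-fold. The simulation gave all genes 1 dispersion, changed only genes with higher counts and put no unlike conditions inside a group. Recovery in the real data may therefore differ.

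By compartment, 2 of 15 cytosolic members were higher and 6 lower, 0 of 3 mitochondrial members higher and 2 lower, and 2 of 21 ER members higher and 6 lower. Leaving out the DMSO-frozen library held for 0 h reduced the members called lower from 14 to 8 and those called higher from 4 to 3, and the calls of HSPH1, HSP90AA1, HSP90AB1, DNAJA1, CRYAB, HSPA9 and ATF6 were lost. Over all genes the calls went from 4684 to 2136 without that library. The lone DMSO-frozen library is then assumed to vary like the other groups. With libraries scaled by their totals alone, 5 members were higher and 10 lower: HSPH1, HSP90AB1, DNAJA1 and HSPA9 were lost and DNAJB11 was gained on the higher side. The share of higher genes among all genes called was 56.4% with that scaling and 45.3% without it. With hold time (0 h or longer) as a further term, an alternative chosen after seeing the data, 4 members were higher and 10 lower, and the calls of HSPH1, HSP90AB1, DNAJA1 and HSPA9 were lost at edgeR adjusted p of 0.142, 0.0623, 0.137 and 0.108.

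HSF1, the regulator, measured 50.2, 47.5 and 51.1 CPM in fresh, 47.5 and 54.6 CPM in DMSO-frozen and 60.7, 52.8 and 57.2 CPM in osmolyte-frozen cells. The osmolyte-frozen libraries lay above all fresh ones and overlapped the DMSO-frozen ones. HSF1 passed the threshold in none of the 3 comparisons, with an edgeR adjusted p of 0.0524 for osmolyte-frozen against fresh cells.

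Counted levels of the heat-inducible HSP70 pair were low throughout, and reads that match both copies may be missing from them. HSPA1A (hg19 chromosome 6, 31783291 to 31785719) measured 8.01, 6.55 and 8.39 CPM in fresh, 7.22 and 8.57 CPM in DMSO-frozen and 10.1, 10.4 and 8.88 CPM in osmolyte-frozen cells. Its 3 osmolyte-frozen values were the 3 highest, the lowest of them close to the DMSO-frozen library held for 1 h. Exact Poisson intervals of 95%, which cover counting error only and take each pair of counts as 1 unit, ran from 5.52 to 7.71 CPM in fresh cells with DMSO and from 7.70 to 10.2 CPM in SGI. Against fresh cells HSPA1A was higher by a log2 fold change of 0.36 (SE 0.13, edgeR adjusted p = 0.0305), and against DMSO-frozen cells it did not pass. The call against fresh cells was lost without the fresh library at 0 h, the fresh library with DMSO, the SMC library or the SGC library, at edgeR adjusted p-values of 0.0559, 0.164, 0.0712 and 0.103.

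HSPA1B (hg19 chromosome 6, 31795512 to 31798031), a near-identical copy, measured 16.2, 17.2 and 16.4 CPM in fresh, 16.6 and 19.9 CPM in DMSO-frozen and 19.0, 17.7 and 15.3 CPM in osmolyte-frozen cells. The groups overlapped and HSPA1B passed in no comparison. Because the copies may share reads, they were also summed, which does not restore any reads left out for matching both. The sum was 24.2, 23.8 and 24.8 CPM in fresh, 23.8 and 28.5 CPM in DMSO-frozen and 29.2, 28.1 and 24.2 CPM in osmolyte-frozen cells. Summed, the pair did not pass against fresh cells (log2 fold change 0.16, edgeR adjusted p = 0.174).

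HSPA8, the constitutive HSP70, and HSPA4 were lower in osmolyte-frozen cells than in both other groups, while HSPH1 was lower only against DMSO-frozen cells by the threshold, a difference between the comparisons that was not tested. HSPA8 measured 1333, 1281 and 1370 CPM in fresh, 1490 and 1377 CPM in DMSO-frozen and 1104, 1135 and 985 CPM in osmolyte-frozen cells. Every osmolyte-frozen value lay below every other value. HSPA8 was lower than in DMSO-frozen cells by a log2 fold change of -0.42 (SE 0.08, edgeR adjusted p = 0.00107) and lower than in fresh cells by -0.31 (SE 0.07, edgeR adjusted p = 0.00312).

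HSPA4 (hg19 chromosome 5, 132387662 to 132440709), an HSP110-type nucleotide exchange factor for HSP70, showed the same arrangement of libraries with less spread. Its levels were 187, 198 and 192 CPM in fresh, 193 and 181 CPM in DMSO-frozen and 124, 132 and 128 CPM in osmolyte-frozen cells. No osmolyte-frozen library came near the fresh or DMSO-frozen ones. Fold changes on the log2 scale were -0.54 against DMSO-frozen (SE 0.08, edgeR adjusted p = 5.76e-05) and -0.58 against fresh cells (SE 0.07, edgeR adjusted p = 3.54e-06).

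HSPH1, a second HSP110, measured 111, 114 and 106 CPM in fresh, 134 and 124 CPM in DMSO-frozen and 112, 110 and 108 CPM in osmolyte-frozen cells. Here the DMSO-frozen libraries were the high ones and fresh and osmolyte-frozen cells overlapped. HSPH1 was lower than in DMSO-frozen cells by -0.22 on the log2 scale (SE 0.08, edgeR adjusted p = 0.0347). Without either DMSO-frozen library, or without the SGC or the SGI library, its edgeR adjusted p was 0.0558 to 0.271.

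Both cytosolic HSP90 genes, which serve kinases and hormone receptors, were lower in osmolyte-frozen cells. HSP90AA1, the stress-inducible form, measured 948, 1040 and 1017 CPM in fresh, 1092 and 975 CPM in DMSO-frozen and 785, 807 and 764 CPM in osmolyte-frozen cells. Its log2 fold change was -0.40 against DMSO-frozen (SE 0.08, edgeR adjusted p = 0.00126) and -0.35 against fresh cells (SE 0.07, edgeR adjusted p = 0.000819). HSP90AB1, the constitutive form, measured 515, 542 and 581 CPM in fresh, 527 and 510 CPM in DMSO-frozen and 421, 472 and 424 CPM in osmolyte-frozen cells. SGC was the nearest of the osmolyte-frozen libraries to the other groups, without overlap. HSP90AB1 had a log2 fold change of -0.24 against DMSO-frozen (edgeR adjusted p = 0.0357) and -0.31 against fresh cells (edgeR adjusted p = 0.00257). The first of these was lost, at edgeR adjusted p of 0.0894 to 0.209, without the SMC library, the SGI library or either DMSO-frozen library, and HSP90AA1 reached 0.0523 without the DMSO-frozen library held for 0 h.

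HSP40 proteins deliver clients to HSP70 and start its ATP hydrolysis. DNAJA1 measured 148, 148 and 153 CPM in fresh, 173 and 165 CPM in DMSO-frozen and 137, 157 and 141 CPM in osmolyte-frozen cells. The DMSO-frozen libraries were again the highest. DNAJA1 was lower than in DMSO-frozen cells by -0.22 on the log2 scale, close to the threshold (SE 0.08, edgeR adjusted p = 0.0488). That call was lost without the fresh library with DMSO, the SMC or SGI library or either DMSO-frozen library, at edgeR adjusted p of 0.0564 to 0.267. DNAJB1, the stress-inducible HSP40, stayed within 50.6 and 67.6 CPM and DNAJB4 within 67.5 and 87.3 CPM, and neither passed in any comparison.

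Small heat shock proteins hold unfolding proteins without using ATP, and 2 of the 3 measured here were higher in osmolyte-frozen than in DMSO-frozen cells. HSPB1 (HSP27, hg19 chromosome 7, 75931875 to 75933614) measured 147, 128 and 166 CPM in fresh, 121 and 159 CPM in DMSO-frozen and 217, 230 and 217 CPM in osmolyte-frozen cells. All 3 osmolyte-frozen values lay above all 5 others, which overlapped one another. The log2 fold change was 0.66 against DMSO-frozen (SE 0.12, edgeR adjusted p = 0.000736) and 0.59 against fresh cells (SE 0.10, edgeR adjusted p = 0.00034).

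CRYAB (alpha B crystallin, hg19 chromosome 11, 111779350 to 111782473) measured 5.95, 8.55 and 9.80 CPM in fresh, 4.18 and 4.63 CPM in DMSO-frozen and 8.51, 9.02 and 6.74 CPM in osmolyte-frozen cells. The DMSO-frozen libraries were the 2 lowest, while fresh and osmolyte-frozen cells overlapped. CRYAB was higher in osmolyte-frozen than in DMSO-frozen cells by 0.88 on the log2 scale (SE 0.19, edgeR adjusted p = 0.00273) and lower in DMSO-frozen than in fresh cells by -0.88 (SE 0.19, edgeR adjusted p = 0.0228). Without the DMSO-frozen library held for 0 h the edgeR adjusted p-values were 0.0554 and 0.304. The difference from fresh cells was also lost without the other DMSO-frozen library, the fresh library with DMSO or the fresh library in medium, at edgeR adjusted p of 0.155, 0.0543 and 0.0611. Both differences used the same 2 DMSO-frozen libraries. HSPB8, which acts with BAG3 in chaperone-assisted autophagy, stayed within 22.2 and 27.2 CPM, and BAG3, which links HSPB8 to HSP70, within 68.1 and 77.4 CPM, with no call in any comparison.

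**Figure D2:**
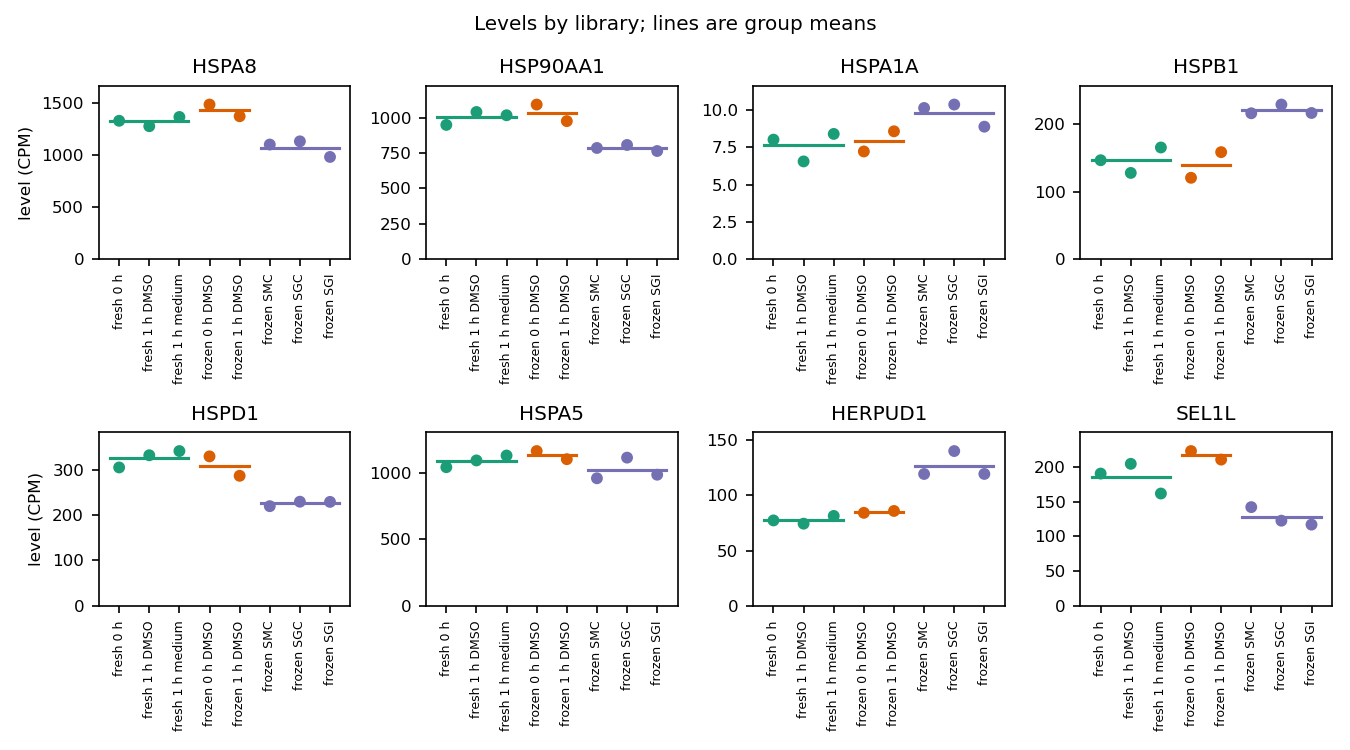
Level in CPM (y axes, from 0) of 8 members in each library (points), with lines at the group means. HSPA8, HSP90AA1, HSPD1 and SEL1L are lowest and HSPB1 and HERPUD1 highest in the 3 osmolyte-frozen libraries, while the HSPA5 values overlap between groups.

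Mitochondrial chaperones import and fold proteins of the matrix. HSPD1, the chaperonin HSP60, measured 305, 332 and 342 CPM in fresh, 330 and 287 CPM in DMSO-frozen and 220, 230 and 229 CPM in osmolyte-frozen cells. The osmolyte-frozen libraries lay close together and below all others. Log2 fold changes of HSPD1 were -0.45 against DMSO-frozen (SE 0.08, edgeR adjusted p = 0.000705) and -0.53 against fresh cells (SE 0.08, edgeR adjusted p = 2.5e-05).

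HSPA9, the mitochondrial HSP70 or mortalin, measured 190, 195 and 194 CPM in fresh, 190 and 177 CPM in DMSO-frozen and 145, 165 and 155 CPM in osmolyte-frozen cells. There was no overlap with either group. Against DMSO-frozen cells its log2 fold change was -0.24 (SE 0.08, edgeR adjusted p = 0.0324), a call lost without the SMC library, the SGI library or either DMSO-frozen library at edgeR adjusted p of 0.0579 to 0.256. HSPA9 was lower than in fresh cells by -0.31 (SE 0.07, edgeR adjusted p = 0.00221). HSPE1, the small partner of HSPD1, measured 37.7, 39.4 and 47.8 CPM in fresh, 41.1 and 37.8 CPM in DMSO-frozen and 36.2, 41.2 and 40.6 CPM in osmolyte-frozen cells, and passed in no comparison. Of the 3 mitochondrial members HSPE1 has the shortest listed length.

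In the ER, the central chaperones moved little. HSPA5 measured 1046, 1097 and 1134 CPM in fresh, 1168 and 1106 CPM in DMSO-frozen and 962, 1118 and 989 CPM in osmolyte-frozen cells. SMC and SGI were the lowest and SGC lay among the fresh libraries. HSPA5, the gene most often used to read ER stress, passed in no comparison. HSP90B1 measured 1435, 1597 and 1658 CPM in fresh, 1641 and 1512 CPM in DMSO-frozen and 1319, 1464 and 1243 CPM in osmolyte-frozen cells. SGC overlapped the fresh library at 0 h. Against fresh cells HSP90B1 was lower by -0.22 on the log2 scale (SE 0.08, edgeR adjusted p = 0.0350), a call that ended without the fresh library with DMSO, the fresh library in medium, the SMC or the SGI library at edgeR adjusted p of 0.0841 to 0.151. HYOU1, an exchange factor for HSPA5, stayed within 212 and 256 CPM and did not pass.

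Among HSPA5's J-domain partners, directions differed. DNAJC3, which is also an inhibitor of PERK, measured 112, 111 and 103 CPM in fresh, 119 and 111 CPM in DMSO-frozen and 90.8, 80.4 and 79.6 CPM in osmolyte-frozen cells. It was lower in osmolyte-frozen cells without overlap, by -0.46 against DMSO-frozen (SE 0.08, edgeR adjusted p = 0.000474) and -0.38 against fresh cells (SE 0.08, edgeR adjusted p = 0.000569). DNAJB9, which helps to switch IRE1 off, measured 32.8, 26.5 and 30.5 CPM in fresh, 35.7 and 34.1 CPM in DMSO-frozen and 40.3, 39.6 and 34.7 CPM in osmolyte-frozen cells. All 5 frozen libraries lay above the 3 fresh ones, and DNAJB9 passed against fresh cells for osmolyte freezing (log2 fold change 0.35, SE 0.09, edgeR adjusted p = 0.00407). For DNAJB11 the levels were 77.7, 79.4 and 84.1 CPM in fresh, 84.5 and 83.5 CPM in DMSO-frozen and 93.6, 102 and 93.3 CPM in osmolyte-frozen cells. DNAJB11 was higher than in fresh cells by 0.26 (SE 0.07, edgeR adjusted p = 0.00677), or 0.21 at an edgeR adjusted p of 0.0533 without the fresh library at 0 h.

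MANF, a secreted ER stress protein that binds HSPA5, measured 53.2, 51.1 and 57.7 CPM in fresh, 59.5 and 58.9 CPM in DMSO-frozen and 71.4, 82.3 and 75.7 CPM in osmolyte-frozen cells. The 3 osmolyte-frozen libraries were the highest, with SGC at the top. MANF was higher by 0.37 on the log2 scale against DMSO-frozen (SE 0.09, edgeR adjusted p = 0.00356) and by 0.50 against fresh cells (SE 0.08, edgeR adjusted p = 4.62e-05). CRELD2 and SDF2L1, also ER stress genes, stayed within 31.9 and 37.0 CPM and within 13.1 and 17.1 CPM and passed in no comparison.

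Lectin chaperones hold newly made glycoproteins, and disulfide isomerases set their disulfide bonds. CANX, the membrane-bound calnexin, measured 762, 859 and 747 CPM in fresh, 860 and 812 CPM in DMSO-frozen and 595, 584 and 543 CPM in osmolyte-frozen cells. No osmolyte-frozen library overlapped with the other groups. CANX was lower by -0.54 against DMSO-frozen (SE 0.08, edgeR adjusted p = 0.000111) and by -0.46 against fresh cells (SE 0.08, edgeR adjusted p = 9.87e-05). CALR, its soluble relative, measured 1438, 1581 and 1695 CPM in fresh, 1536 and 1564 CPM in DMSO-frozen and 1318, 1607 and 1442 CPM in osmolyte-frozen cells. SGC lay among the fresh libraries and CALR passed in no comparison.

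PDIA6, an isomerase that also acts on the sensors, measured 337, 371 and 375 CPM in fresh, 352 and 346 CPM in DMSO-frozen and 248, 261 and 222 CPM in osmolyte-frozen cells. Its osmolyte-frozen libraries were well below the rest. The log2 fold change of PDIA6 was -0.52 against DMSO-frozen (SE 0.08, edgeR adjusted p = 0.000213) and -0.57 against fresh cells (SE 0.08, edgeR adjusted p = 1.39e-05). PDIA4 measured 406, 442 and 470 CPM in fresh, 417 and 434 CPM in DMSO-frozen and 353, 407 and 354 CPM in osmolyte-frozen cells. SGC overlapped the fresh library at 0 h. PDIA4 was lower than in fresh cells by -0.24 (SE 0.08, edgeR adjusted p = 0.0196), and without the fresh library with DMSO, the fresh library in medium, the SMC or the SGI library the edgeR adjusted p was 0.0503 to 0.0847. PDIA3 stayed within 299 and 353 CPM and P4HB, also a subunit of the enzyme that hydroxylates collagen, within 1113 and 1264 CPM, with no call.

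Of the sensors, ATF6 measured 76.6, 77.1 and 68.6 CPM in fresh, 86.5 and 80.0 CPM in DMSO-frozen and 68.7, 62.3 and 60.2 CPM in osmolyte-frozen cells. SMC overlapped the fresh library in medium. ATF6 was lower by -0.39 against DMSO-frozen (SE 0.09, edgeR adjusted p = 0.0025), with an edgeR adjusted p of 0.0552 without the DMSO-frozen library held for 0 h. Its difference of -0.22 from fresh cells (SE 0.08, edgeR adjusted p = 0.0310) was lost without the fresh library at 0 h, the fresh library with DMSO, the SGC or the SGI library, at 0.0711 to 0.137. ERN1 stayed within 6.34 and 8.17 CPM and XBP1, the factor that IRE1 activates by splicing, within 107 and 140 CPM, with no call. Gene counts do not separate the spliced from the unspliced XBP1 transcript.

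Against DMSO-frozen cells, ERAD genes showed the largest change among the ER members in each direction. HERPUD1 (hg19 chromosome 16, 56965748 to 56977793), a stress-induced organiser of the ERAD complex, measured 77.4, 74.4 and 81.4 CPM in fresh, 84.2 and 85.9 CPM in DMSO-frozen and 119, 140 and 120 CPM in osmolyte-frozen cells. All osmolyte-frozen libraries stood above the rest, with SGC highest. HERPUD1 was higher by 0.57 on the log2 scale against DMSO-frozen (SE 0.09, edgeR adjusted p = 0.000108) and by 0.70 against fresh cells (SE 0.08, edgeR adjusted p = 1.17e-06).

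SEL1L (hg19 chromosome 14, 81937891 to 82000205), the scaffold of the HRD1 ubiquitin ligase in the same complex, went the other way. Its levels were 191, 205 and 162 CPM in fresh, 223 and 211 CPM in DMSO-frozen and 142, 123 and 117 CPM in osmolyte-frozen cells. The osmolyte-frozen libraries were the 3 lowest and the DMSO-frozen ones the 2 highest. SEL1L was lower by -0.77 against DMSO-frozen (SE 0.10, edgeR adjusted p = 3.16e-05) and by -0.55 against fresh cells (SE 0.09, edgeR adjusted p = 0.000152). EDEM1, a mannosidase-like protein that marks glycoproteins for degradation, measured 119, 120 and 117 CPM in fresh, 112 and 106 CPM in DMSO-frozen and 94.1, 72.3 and 76.3 CPM in osmolyte-frozen cells. SMC lay nearest to the other groups. EDEM1 was lower by -0.43 against DMSO-frozen (SE 0.10, edgeR adjusted p = 0.00255) and by -0.55 against fresh cells (SE 0.09, edgeR adjusted p = 5.82e-05).

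The comparison of osmolyte-frozen with fresh cells uses the same osmolyte-frozen libraries, so its calls are not independent of those above. In total 6 members were higher, HSPA1A, HSPB1, DNAJB9, DNAJB11, MANF and HERPUD1, and 14 lower, against 19.1% of genes higher and 21% lower (40.1% either way). By compartment these were 2 higher and 4 lower of 15 cytosolic members, 0 and 2 of 3 mitochondrial members and 4 and 8 of 21 ER members. The members' median log2 fold change was -0.08, beside 0.02 over all genes tested. Libraries did not overlap for 7 members on the higher and 11 on the lower side, beside 24.8% of genes on each. With libraries scaled by their totals alone, HSP90B1 was lost and HSF1 was gained on the higher side. With hold time as a further term HSPA1A and ATF6 were lost, at edgeR adjusted p of 0.0629 and 0.0919. Only 1 of the 3 fresh libraries had been exposed to DMSO.

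DMSO-frozen cells differed from fresh ones in 1 member, CRYAB, which was lower, and in 0 members that were higher. Over all genes edgeR called 1.25% higher and 0.617% lower (1.87% either way). At an unadjusted p under 0.05 edgeR had 4 members higher, HSPH1, DNAJA1, DNAJB9 and SEL1L, and 1 lower, and DESeq2 called 0 higher and 1 lower after adjustment. The members' median log2 fold change was 0.03, beside -0.01 over all genes tested, and the libraries did not overlap for 8 members on the higher and 2 on the lower side, beside 16% and 15.4% of genes.

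**Figure D3:**
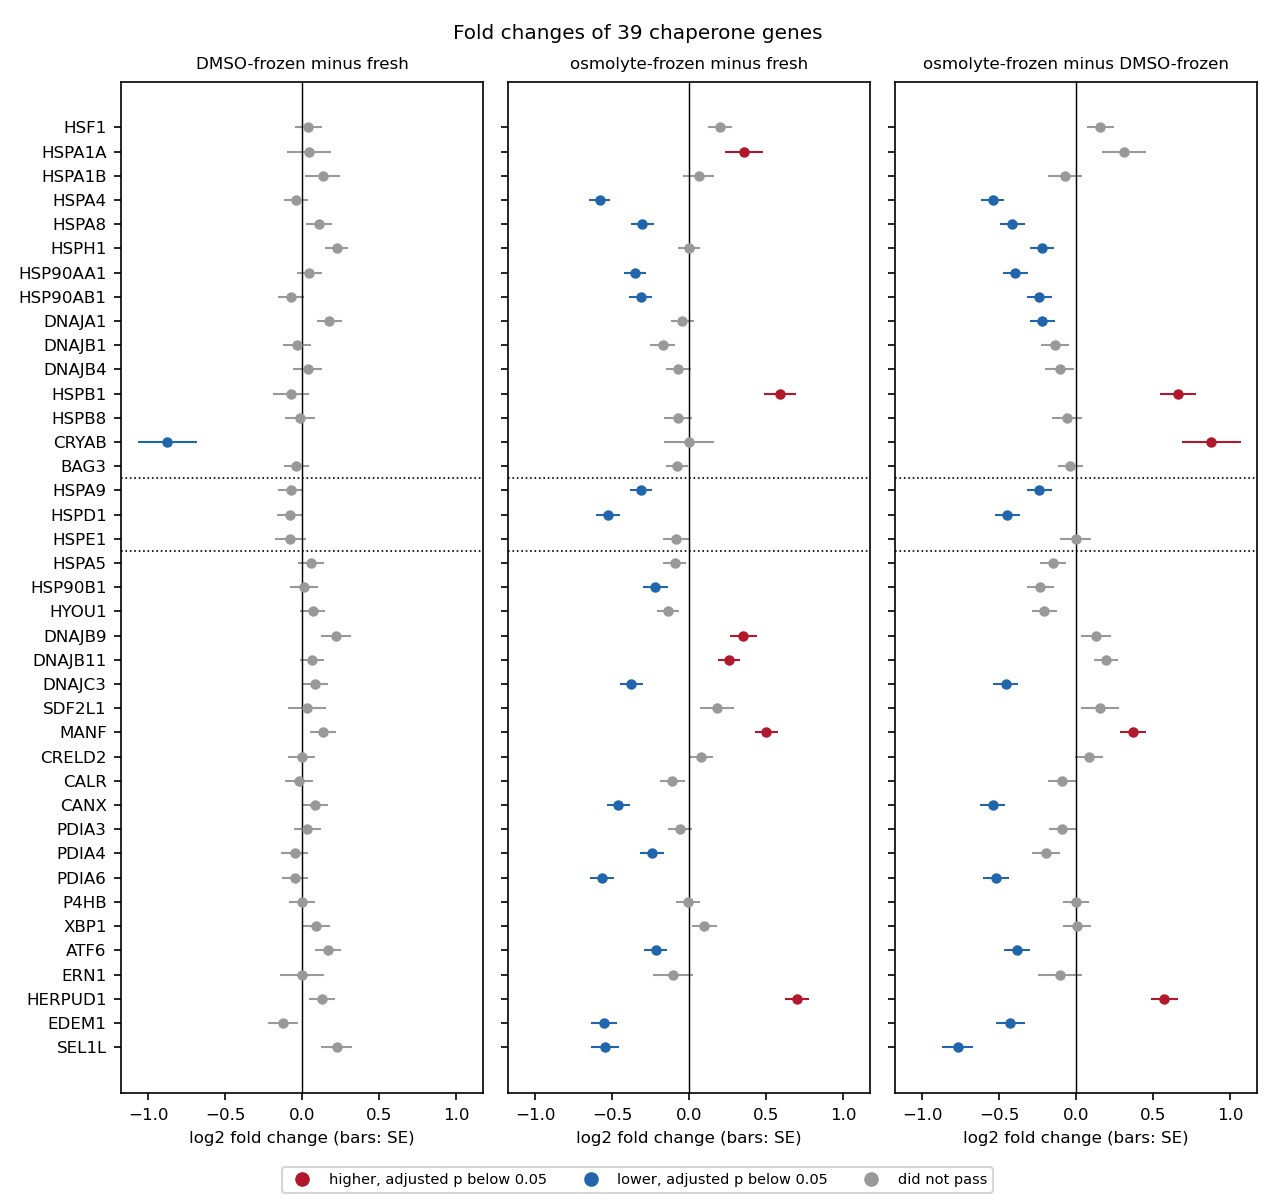
Log2 fold change (x axes) of the 39 genes in the 3 comparisons, with bars of 1 SE. Red and blue mark genes past an edgeR adjusted p of 0.05. In DMSO-frozen against fresh cells CRYAB alone is coloured, while both panels with osmolyte-frozen cells show 14 blue genes, beside 6 red ones against fresh and 4 against DMSO-frozen cells.

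Conditions with 1 library each were set side by side without a test. The limit was a 2-fold difference, given 50 or more counts on the higher side, and 0 of 39 members reached it in any of 9 pairs. Among fresh libraries, the shares of genes past the fold were 0.417% higher and 0.417% lower in medium than at 0 h, 0.223% and 0.493% with DMSO than at 0 h, and 0.466% and 0.769% with DMSO than in medium. The 1 h DMSO-frozen library had 0.237% higher and 0.153% lower than the 0 h one, and 0.624% and 0.378% than fresh cells with DMSO for 1 h. Frozen and fresh cells at 0 h, which differ also in DMSO, had 0.305% and 0.695%. Between osmolyte solutions the shares were 0.363% and 0.551% for SMC against SGC, 0.24% and 0.891% for SMC against SGI, and 0.12% and 0.389% for SGC against SGI. The members' median log2 ratio was 0.12 for SGC over SGI, beside 0.01 for all genes, and 0.09 for fresh cells in medium over those at 0 h, beside 0.00.

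Other genes of the same pathways went in both directions. These counts stand beside 13.6% higher and 16.5% lower of all genes against DMSO-frozen cells, and 19.1% and 21% against fresh cells. Of 36 other HSF1-related genes tested, 3 were higher and 6 lower in osmolyte-frozen than in DMSO-frozen cells, and 5 and 7 against fresh cells. The 14 genes of the cytosolic chaperonin and prefoldin, which fold actin and tubulin, had 2 higher and 2 lower against DMSO-frozen cells and 0 higher and 8 lower against fresh cells. Other mitochondrial folding genes had 1 higher and 3 lower of 15 against DMSO-frozen and 0 and 5 against fresh cells. Other ER folding genes had 2 higher and 9 lower of 30, and 8 and 9 against fresh cells. Other sensors and ERAD genes had 1 higher and 8 lower of 21, and 3 and 8 against fresh cells. In DMSO-frozen against fresh cells none of these lists, nor the PERK arm or immediate early genes, had a gene past the edgeR threshold.

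Of 9 genes listed for the PERK arm, which slows translation and acts through ATF4, 5 were higher and 1 lower in osmolyte-frozen cells. These counts were the same against DMSO-frozen and against fresh cells. EIF2AK3, the gene for PERK, measured 32.3, 32.0 and 26.0 CPM in fresh and 36.6 and 33.6 CPM in DMSO-frozen cells. In osmolyte-frozen cells EIF2AK3 measured 37.1, 25.7 and 28.3 CPM, overlapping both groups. Whether PERK itself was active was not tested. CHAC1, which degrades glutathione, measured 1.88, 2.23 and 2.04 CPM in fresh, 2.13 and 2.49 CPM in DMSO-frozen and 8.37, 17.1 and 14.8 CPM in osmolyte-frozen cells. DDIT3, the factor CHOP, measured 5.91, 6.59 and 8.39 CPM in fresh, 8.08 and 6.73 CPM in DMSO-frozen and 13.8, 14.6 and 14.7 CPM in osmolyte-frozen cells. In both, the osmolyte-frozen libraries were above all others. Against DMSO-frozen cells the log2 fold change was 2.54 for CHAC1 (SE 0.27, edgeR adjusted p = 3.12e-05) and 0.96 for DDIT3 (SE 0.14, edgeR adjusted p = 9.39e-05). TRIB3, a pseudokinase downstream of ATF4, was higher by 0.65 (SE 0.14, edgeR adjusted p = 0.00187). Against fresh cells HSF4, a relative of HSF1, was higher by 0.74 (SE 0.15, edgeR adjusted p = 0.000957).

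Against DMSO-frozen cells, TXNDC5, MBTPS2 and UGGT1 had the largest falls among the pathway genes past the threshold with at least 5 CPM on the higher side. UGGT1, which tags misfolded glycoproteins for another round with CANX and CALR, measured 270, 289 and 259 CPM in fresh, 292 and 287 CPM in DMSO-frozen and 185, 178 and 178 CPM in osmolyte-frozen cells. MBTPS2, the protease that completes ATF6 activation, measured 46.9, 52.2 and 41.7 CPM in fresh, 50.6 and 47.1 CPM in DMSO-frozen and 29.6, 26.2 and 27.8 CPM in osmolyte-frozen cells. Neither overlapped between osmolyte-frozen cells and the rest. Against DMSO-frozen cells the log2 fold change was -0.68 for UGGT1 (SE 0.08, edgeR adjusted p = 5.96e-06), -0.81 for MBTPS2 (SE 0.09, edgeR adjusted p = 7.46e-06) and -0.82 for TXNDC5, a disulfide isomerase (SE 0.13, edgeR adjusted p = 0.000111).

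Gene length moved with the members' fold changes. The table lists a length for each gene, headed as coding length, of which 35.2% are multiples of 3, so it covers more than coding sequence. Across the 39 members, which share libraries and differ in level, Spearman's rho between listed length and log2 fold change was -0.71 for osmolyte-frozen against DMSO-frozen cells, -0.63 against fresh cells and 0.20 for DMSO-frozen against fresh cells. Across all genes tested it was -0.27, -0.12 and 0.26. Against DMSO-frozen cells, CRYAB (691 bases), HSPB1 (897) and MANF (939) were among the higher members, and ATF6 (7546) and SEL1L (8576) among the lower.

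Split at the members' median length of 2520 bases, the 19 shorter members had 4 higher and 4 lower against DMSO-frozen cells, where 15.8% of shorter genes were higher and 5.72% lower. The 19 longer members had 0 higher and 10 lower, where 12.2% of longer genes were higher and 23.6% lower. Against fresh cells the shorter members had 5 higher and 3 lower (18.5% and 12.8% of genes) and the longer ones 1 higher and 11 lower (19.5% and 26.3% of genes).

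**Figure D4:**
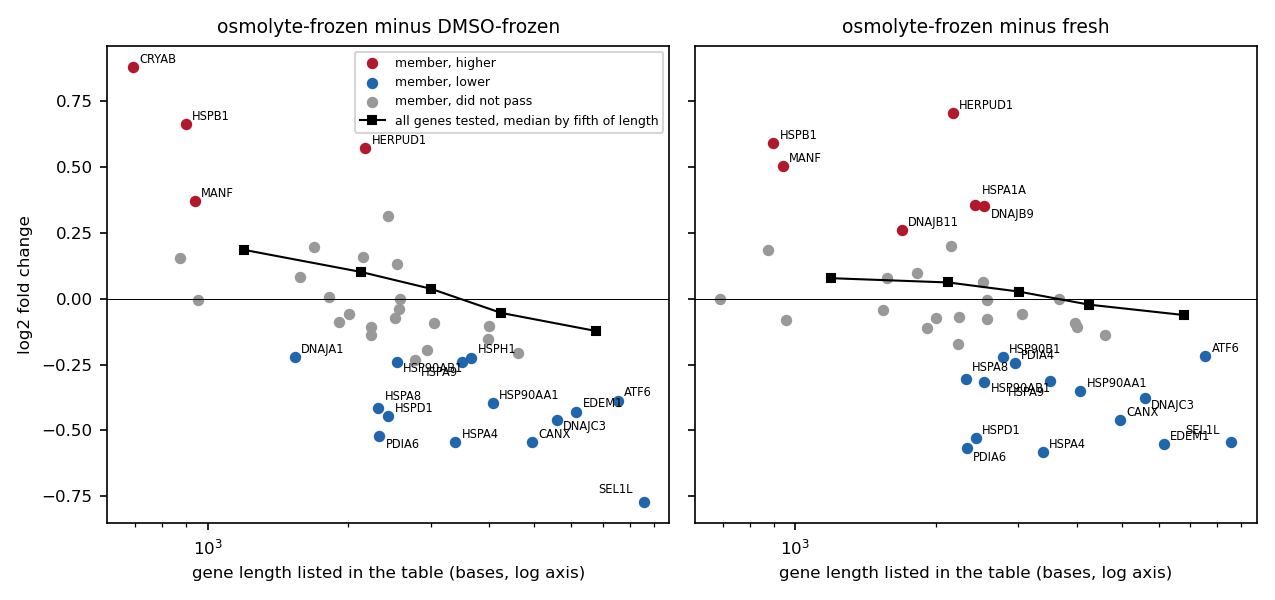
Log2 fold change of the 39 members (points) against the length the table lists for each gene (x axis, log scale), for osmolyte-frozen against DMSO-frozen (left) and fresh cells (right). Red and blue mark members past an edgeR adjusted p of 0.05, and black squares join the median of all genes tested in each of 5 length classes. HSPB1 and MANF, higher in both panels, sit at the short end and SEL1L, ATF6 and EDEM1 at the long end.

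A per-library trend of level on length was therefore removed before a further fit, an alternative chosen after seeing the data. Over all genes rho went to -0.03 and -0.02 for the osmolyte comparisons, and over the members to -0.54 and -0.53. All 18 calls against DMSO-frozen cells were kept and HSP90B1 was gained on the lower side, while the log2 fold change of MANF went from 0.37 to 0.23 and that of ATF6 from -0.39 to -0.24. Against fresh cells 19 of 20 calls were kept, ATF6 was lost and DNAJB1 was gained on the lower side.

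Nuclear RNAs and the summed pluripotent markers were higher in the osmolyte-frozen libraries, while epithelial and endothelial marker sums overlapped between osmolyte-frozen and fresh cells. MALAT1 and NEAT1, long RNAs kept in the nucleus, took 0.472% to 0.567% of counts in fresh, 0.452% and 0.393% in DMSO-frozen and 0.846% to 0.948% in osmolyte-frozen libraries. The 8 pluripotent stem cell markers summed to 16.1 to 17.7 CPM in fresh, 17.8 and 17.7 CPM in DMSO-frozen and 21.0 to 26.1 CPM in osmolyte-frozen libraries, with 2 of the 6 tested higher against DMSO-frozen and 5 against fresh cells. The largest part of this sum was DNMT3B, at 8.54 to 12.1 CPM, whose osmolyte-frozen and DMSO-frozen values overlapped. POU5F1, highest in the osmolyte-frozen libraries, was at 2.13 to 5.53 CPM and NANOG at 0.710 to 2.09 CPM. SOX2 was at 0 in 4 of 8 libraries and under 0.1 CPM in the rest. Of the 9 stromal markers, 1 was higher and 4 lower against DMSO-frozen cells and 2 higher and 5 lower against fresh cells. Epithelial markers had 1 of 5 higher against DMSO-frozen cells, 2 higher (EPCAM and CDH1) and 2 lower (KRT8 and KRT19) against fresh cells, and KRT19 lower in DMSO-frozen than in fresh cells. Endothelial markers had 1 of 5 lower against DMSO-frozen cells, and 1 higher and 1 lower against fresh cells. Over all genes, 13.6% were higher and 16.5% lower against DMSO-frozen cells, and 19.1% and 21% in osmolyte-frozen against fresh cells. In DMSO-frozen against fresh cells 0.617% were lower. The part of these RNAs and markers in the members' differences was not tested.

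Handling differed too. The 22 immediate early genes, which respond within minutes to a disturbance, summed to 4480, 1874 and 8062 CPM in fresh, 2308 and 2012 CPM in DMSO-frozen and 3767, 5153 and 3786 CPM in osmolyte-frozen cells. The fresh library in medium was the highest and the fresh library with DMSO the lowest, so the fresh group spanned both frozen groups. Of these genes 2 were higher against DMSO-frozen cells and 1, EGR3, was lower against fresh cells (log2 fold change -2.88, SE 0.82, edgeR adjusted p = 0.0413). EGR3 measured 24.0, 5.87 and 49.1 CPM in fresh, 3.67 and 2.40 CPM in DMSO-frozen and 3.82, 3.66 and 3.22 CPM in osmolyte-frozen cells. The part of this spread in the members' levels was not tested.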

How the data were processed

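RNA sequencing was done on 8 libraries. Per the labels' protocols, Illumina libraries were made from total RNA (miRNeasy). CASAVA 1.9, TopHat (version given as 12.0.6), HTSeq and build hg19 are named per the submitters' processing notes. The sources used here do not give the annotation release, strand or mates. Per the file headers, 1 raw count and 1 RPKM value per gene and library were deposited. Each count is even, with 0 odd values, and no source says why. The authors' RPKM values use the listed length and served only to rank members. Of 23398 entries, 49 identifiers occurred more than once, and repeats with identical counts were merged while others were kept apart, leaving 23354 genes.

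Groups came from sample titles: 3 fresh, 2 DMSO-frozen and 3 osmolyte-frozen libraries. Counts were tested with edgeR 4.0.16 (R 4.3.3) in 1 fit of the 3 groups (residual degrees of freedom 5): filterByExpr by state (15564 genes), TMM scaling, robust glmQLFit and glmQLFTest, and Benjamini-Hochberg adjustment over all genes tested at 0.05. The biological coefficient of variation was 0.0971. Standard errors came from each log2 fold change and its F statistic. Alternatives were DESeq2 1.42.0, other scalings, no low-count filter, only the 2 groups compared, robust estimation off, HSPA1A and HSPA1B summed, leaving out each library, a length trend removed (loess span 0.5) and hold time as a term, the last pair chosen after seeing the data. The fit was tested on simulated data with 100 genes changed by 1.4-fold and 100 by 2-fold, which gave 10 false calls.

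The members and the pathway and marker lists were chosen with earlier results of these data known. A member was given a fold change only where it passed the threshold. Of other pathway genes, at most 3 that rose most and 3 that fell most per comparison were open to naming, given 5 CPM or more on the higher side. EIF2AK3 was given besides, as the gene for PERK. Promoters were searched with Python 3.11.15, and GENCODE untranslated regions on GRCh38 were left out of printed stretches.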

Additional observations from a re-analysis of the deposited data

How the results depend on the processing

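No paired analysis was possible because the labels give no replicate numbers and tie no libraries to a shared culture. Hold time, which they do give, was a term (0 h or longer) in 1 alternative only, and it does not replace pairing. That term treats 2 h like 1 h. All osmolyte-frozen libraries were held, so it rests on the fresh and DMSO-frozen ones. Over 17 alternatives, 26 of 39 member calls held in all of them. Among the 663 values that these gave, 608 kept direction and side of the threshold, 55 kept only the direction and 0 reversed. Some alternatives could hardly move a given call, so these totals overstate how hard the calls were tried. Examples are summing HSPA1A and HSPA1B for other genes and leaving out a library in neither group compared. The number of members lower in osmolyte-frozen than in DMSO-frozen cells was 14 and ranged from 8 to 16 when each library was left out in turn, with 8 without the DMSO-frozen library held for 0 h. The call of CRYAB as lower in DMSO-frozen than in fresh cells was lost, giving 0 members, without either DMSO-frozen library or without the fresh library with DMSO or in medium, and leaving out each library gave 0 to 1. Scaling by library totals alone gave 5 members higher and 10 lower against DMSO-frozen cells. It moved the share of higher calls among all genes called from 45.3% to 56.4%. For DMSO-frozen against fresh cells, calls over all genes were 291, and 496 with DESeq2, 91 without the DMSO-frozen library held for 1 h and 99 without the one held for 0 h. The cause of these shifts was not tested. Leaving out a library also removes samples, and with 2 DMSO-frozen libraries the lone one left is assumed to vary like the other groups. CRYAB, ERN1 and HSPA1A had counts of at most 464, where counting error is widest among the members.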
